A study of Sus scrofa with 16 samples.

Results

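The nuclear-encoded subunits of the mitochondrial respiratory chain and ATP synthase were followed in the small intestine of preterm piglets. Members were all genes on the array whose symbol begins with NDUFA, NDUFB, NDUFC, NDUFS, NDUFV, UQCR, COX4 to COX8 or ATP5 and that had a probe set annotated with that gene alone. This gave 59 of the 6765 genes with a probe set of their own. The rule itself used only symbols and annotation, but it was set with earlier results of these data known. Where a gene had several probe sets, that with the highest mean expression stood for the gene. By complex there were 32 genes of complex I, 2 of complex III, 8 of complex IV, 13 of complex V and 4 accessory genes. NDUFA4, whose product is a subunit of cytochrome c oxidase despite its name, was counted with complex IV. The assembly factor genes NDUFAF1, NDUFAF2 and NDUFAF3 and the ATP synthase coupling factor B gene ATP5S formed the accessory class.

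The piglets, crosses of Landrace, Large white and Duroc, were born by caesarean section on gestation day 105, fed first by vein and then formula by tube, and killed on day 5. One group received ampicillin, gentamycin and metronidazol by mouth and into the muscle from birth, and the control group received matching saline. Whole tissue of the proximal and of the distal small intestine was hybridised to Affymetrix porcine arrays, 4 arrays for each treatment in each segment. The number in each sample name is used here as the array number. If it is the piglet's, the arrays come from 9 piglets, of which 7 gave both segments. All 24 piglets of the study came from 2 sows, and the litter of each array is not given in the sources used here. P values measure the spread between these arrays.

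The respiratory chain passes electrons from NADH through complex I, ubiquinone, complex III and cytochrome c to oxygen at complex IV, and complex V uses the resulting proton gradient to make ATP. Most subunits are encoded in the nucleus and imported, while a small core is encoded in mitochondrial DNA. In the small intestine the absorbing cells of the villus are rich in mitochondria, which supply energy for nutrient uptake and for the export of fat.

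Nearly the whole set was expressed. Of the 59 genes 57 passed the filter for testing, a log2 value above 5 on at least 4 of the 16 arrays, and those 57 lay above that level on all 16 arrays. COX8H, the heart and skeletal muscle form of subunit 8, lay between 2.14 and 2.17 on the arrays, at the floor of the data of 2.14. Of 6 measured striated muscle markers MYH2, MYL1, TNNT3, TNNC1 and TNNI1 also lay at that floor on every array, while the creatine kinase gene CKM lay at 5.35 to 7.41, and the summed log2 level of the 6 was 16.1 to 17.4 in antibiotics distal, 16.5 to 17.8 in control distal, 17.2 to 18.0 in antibiotics proximal and 16.3 to 18.1 in control proximal tissue. NDUFV3, a small complex I subunit, passed the level on 1 array only, antibiotics proximal 95 at 5.13, and was not tested. Among the 57 tested genes the SD within groups had a median of 0.36 (log2, range 0.13 to 0.71), against 0.47 over all 11538 tested probe sets. With a mean above log2 10 the medians lay closer, at 0.35 for 47 of these genes and 0.38 for all 2605 such probe sets. The steadiest was ATP5G3, a gene for the membrane ring of ATP synthase, and the most variable was COX7A1, the muscle-type form of subunit 7A.

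The genes varied together from array to array, and much of that variation lay within groups. On control distal array 89 the median deviation of the 57 genes from their own means was -0.61 (log2), on control distal 92 it was -0.32, and on antibiotics distal 87 it was -0.30. The other control distal arrays, 83 and 88, were at 0.09 and 0.10. Antibiotics distal 85, 86 and 95 were at 0.10, 0.20 and 0.16. So both distal groups held arrays on either side of the mean, and the control group held the lowest of all. Over all tested probe sets the array medians of these deviations lay between -0.18 and 0.04. Of the 57 genes 30 had their lowest value of the 16 arrays on control distal 89, against 9.61% of all tested probe sets. The proximal array of the same number, control proximal 89, was not low, at 0.17. The highest array was antibiotics proximal 98 at 0.35. It held the highest value of 14 of the 57 genes, against 13.1% of all tested probe sets.

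**Figure D1:**
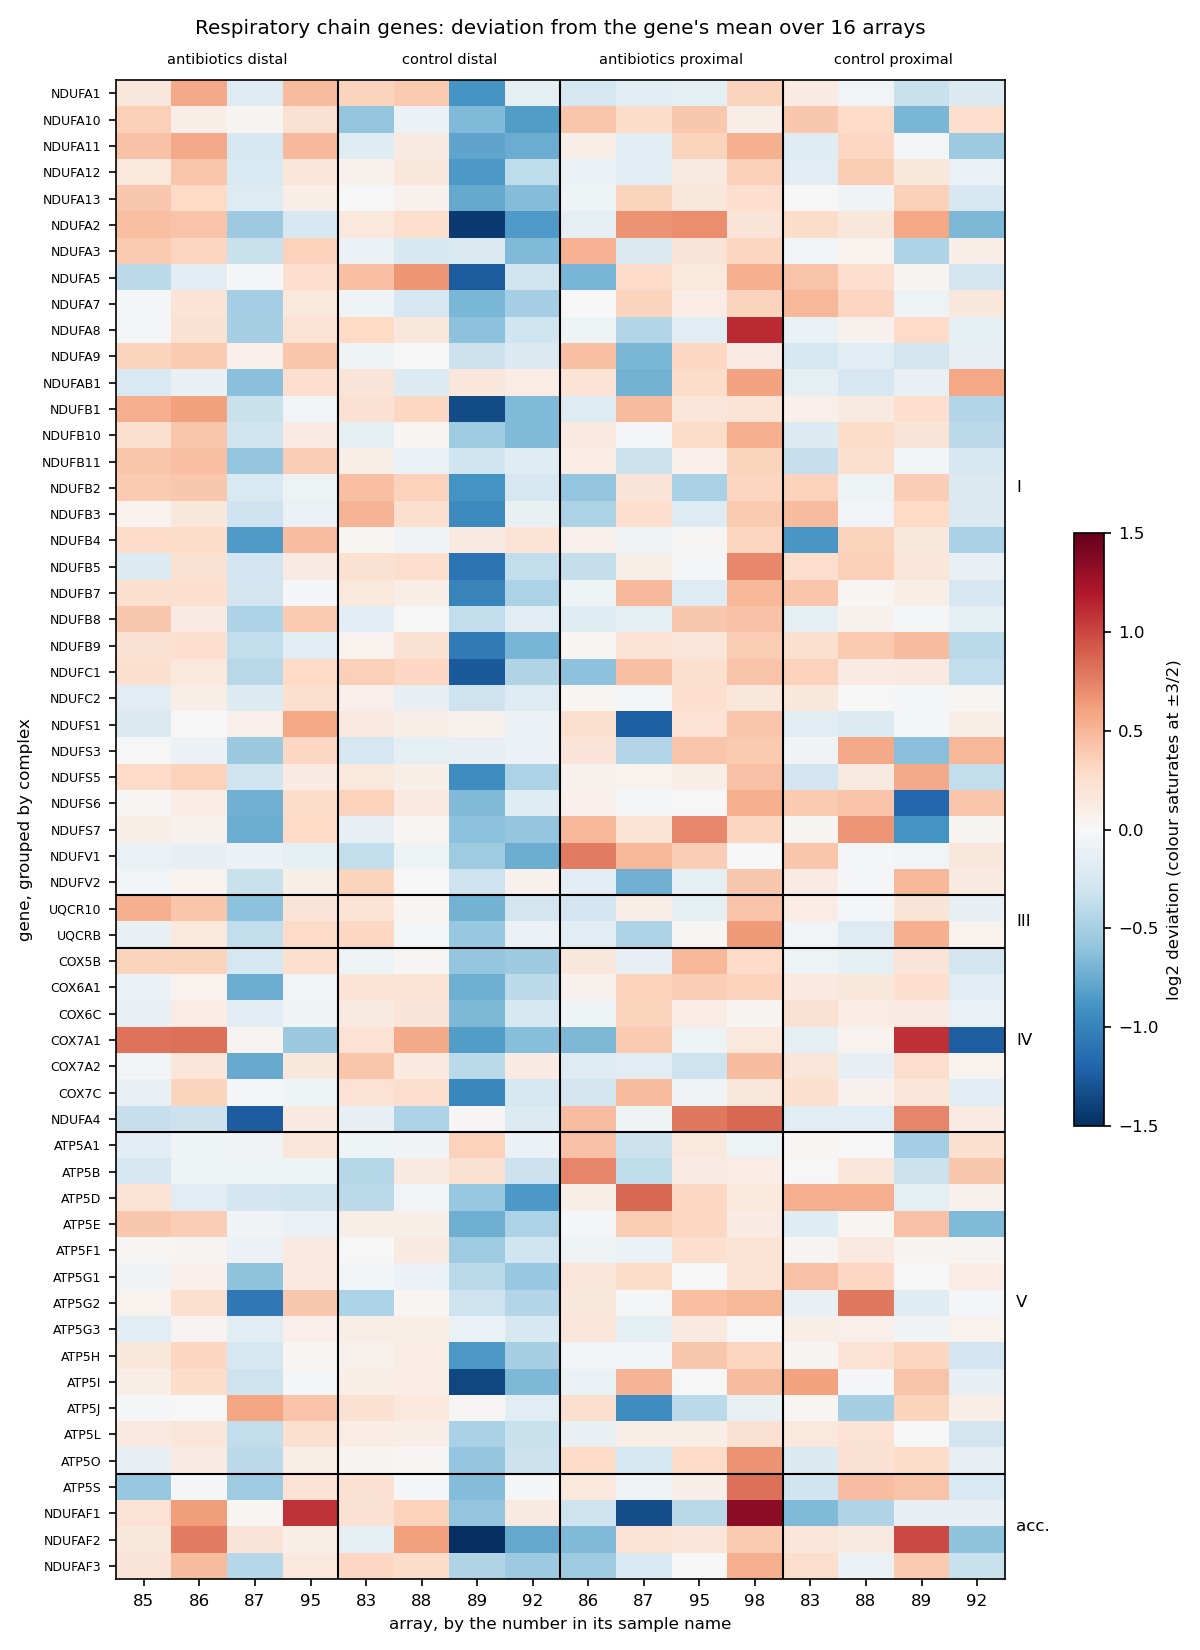
Deviation of each tested gene (rows, by complex) from its own mean on each array (columns, by group), in log2 units as colour. Control distal arrays 89 and 92 and antibiotics distal 87 are mostly below the mean, with median deviations of -0.61, -0.32 and -0.30.

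The low values on control distal 89 were shared by complexes I, III, IV and V, whose medians there were -0.67, -0.63, -0.68 and -0.48. They were not shared by every gene. ATP5A1 and ATP5B, which encode the catalytic alpha and beta subunits of ATP synthase, were above their means there, as were ATP5J, NDUFA4, NDUFAB1, NDUFB4 and NDUFS1; these 7 are named because of their values. Control distal 89 also had a level of FABP1, the liver-type fatty acid binding protein of enterocytes, of 12.92 against 15.92 to 16.28 on the other control distal arrays. The median deviation of all 12 measured enterocyte markers was not low there, at 0.18 against 0.16 to 0.35 on the others. Marker medians of smooth muscle, endothelium and distal small intestine were the highest of the group there, at 0.50, 1.18 and 1.29. The difference between the 5′ and 3′ probe sets of the GAPDH and actin controls, a measure of RNA integrity, was -4.11 there against -4.23, -3.65 and -3.91 on the others of its group. On antibiotics distal 87 it was -4.83, the lowest of the 16 arrays. The part of these in the low values was not tested.

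**Figure D2:**
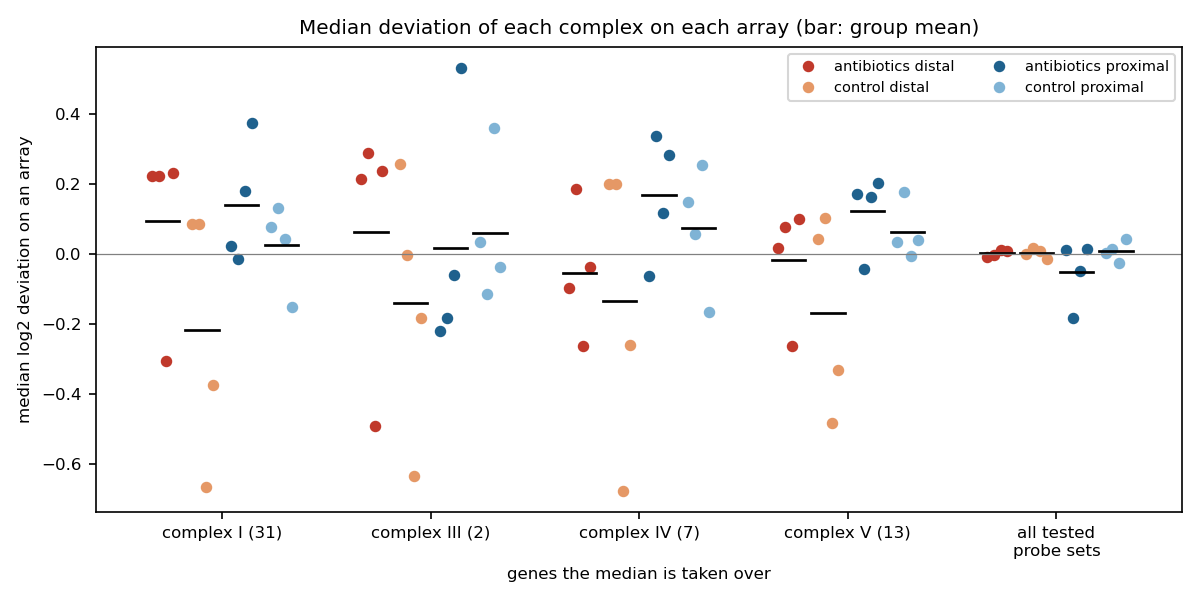
Median log2 deviation from the gene means on each array (points) for complexes I, III, IV and V and for all tested probe sets, with the mean of each group as a bar. In complex I the control distal arrays split into a pair near 0.09 and a pair at -0.37 and -0.67, while the points of all tested probe sets stay between -0.18 and 0.04.

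In distal tissue respiratory chain transcripts had on balance slightly higher means with antibiotics than with saline, but no gene passed the test. Of the 57 genes 47 had a higher mean and 10 a lower one, with a median log2 difference of 0.22. Over all tested probe sets 50.4% had a higher and 49.6% a lower mean, and the median difference was 0.00. With limma's test and Benjamini-Hochberg adjustment over all probe sets 0 of 57 genes were called at an adjusted p of 0.05, where 2.12% of all probe sets were called. At an unadjusted p under 0.05 there were 2 genes, NDUFA10 and NDUFA11, 3.51% of the set, against 15.8% of all probe sets. For 48 of the 57 genes the 95% confidence interval of the difference lay wholly within a 2-fold change in either direction. At the median SE of 0.27 a gene needed a log2 difference of 1.08 to be called.

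Of the 4 complexes complex I had the highest median difference, 0.32, with a higher mean for 28 of 31 genes. The largest difference with a p under 0.05 was that of NDUFA10, an accessory subunit of the membrane arm. Its log2 values were 9.93, 9.67, 9.61 and 9.81 on antibiotics distal arrays 85, 86, 87 and 95, and 8.98, 9.49, 8.91 and 8.74 on control distal arrays 83, 88, 89 and 92. The groups did not overlap, and the treated arrays lay close together while control array 88 came nearest to them. The difference was 0.73 (SE 0.24, 95% interval 0.21 to 1.25, 1.66-fold; limma adjusted p = 0.147, and 0.0104 to 0.626 over the alternatives), and it was 0.52 without control distal arrays 89 and 92.

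NDUFA11, a membrane arm subunit, had values of 11.57, 11.70, 10.87 and 11.62 with antibiotics and 10.95, 11.27, 10.35 and 10.39 in controls. Antibiotics array 87 fell among the controls, so the groups overlapped. The difference was 0.70 (SE 0.27, limma adjusted p = 0.218). NDUFA9, an accessory subunit at the junction of the membrane and matrix arms, had 11.20, 11.26, 10.94 and 11.29 with antibiotics and 10.79, 10.88, 10.55 and 10.66 in controls. As with NDUFA10 and unlike NDUFA11, the lowest treated array, 87, lay above the highest control, with a difference of 0.46 (SE 0.23, limma adjusted p = 0.347). NDUFA10 and NDUFA9 were the 2 genes of the 57 with groups that did not overlap and a higher mean, where 6.40% of all probe sets did so, and 0 of 57 had such groups with a lower mean, where 6.31% did.

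The measured complex I subunits with redox centres, and NDUFS3 beside them, had distal differences from -0.08 to 0.32, where the complex I median was 0.32. NDUFV1, which binds NADH and flavin, had a difference of 0.32, NDUFV2 of -0.08 and NDUFS1 of 0.06, the last 2 genes encoding iron-sulphur subunits. NDUFS7, which holds the last iron-sulphur cluster before ubiquinone, had 0.25 and NDUFS3, a core subunit beside it, 0.07. The 10 NDUFB genes, all of membrane arm subunits, ran from -0.03 for NDUFB4 to 0.56 for NDUFB1 with 9 above 0. NDUFB1 had 14.05, 14.11, 13.17 and 13.46 with antibiotics and 13.73, 13.81, 12.16 and 12.83 in controls, so that the groups overlapped and arrays 89 and 92 were the low controls. The lowest difference in complex I was -0.25 (SE 0.28, limma adjusted p = 0.737) for NDUFAB1, the mitochondrial acyl carrier protein, which also serves fatty acid synthesis in the mitochondrion. The other NDUFA genes (NDUFA1, NDUFA2, NDUFA3, NDUFA5, NDUFA7, NDUFA8, NDUFA12 and NDUFA13) had differences from 0.03 for NDUFA5 to 0.49 for NDUFA13, which is also known as the cell death regulator GRIM-19. NDUFC1 and NDUFC2, of the membrane arm, had 0.33 and 0.13, and NDUFS5 and NDUFS6 0.41 and 0.01.

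Of the accessory genes NDUFAF2, which encodes an assembly factor that stays with complex I until late in its making, had the largest distal difference of all 57. Its values were 9.45, 10.07, 9.48 and 9.39 with antibiotics and 9.16, 9.90, 7.50 and 8.53 in controls. Control array 88 lay above 3 of the treated arrays, and array 89 was far below the rest. The difference of 0.83 had an SE of 0.44 (limma adjusted p = 0.389), and it was 0.07 without control distal arrays 89 and 92. NDUFAF1 and NDUFAF3 had differences of 0.46 (SE 0.43) and 0.20 (SE 0.29), and ATP5S of -0.11 (SE 0.28).

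Complexes III and IV differed less. UQCR10, a small subunit of complex III, had 13.47, 13.35, 12.31 and 13.12 with antibiotics and 13.13, 12.96, 12.23 and 12.66 in controls, a difference of 0.32 (SE 0.27) with overlapping groups. UQCRB, the ubiquinone-binding protein gene of complex III, had a difference of 0.09 (SE 0.27). In complex IV the median difference was 0.09, with 4 of 7 genes higher. COX5B, a nuclear subunit on the matrix side, had 14.14, 14.14, 13.54 and 14.05 with antibiotics and 13.72, 13.83, 13.22 and 13.26 in controls. Only antibiotics array 87 fell within the control range, and the difference was 0.46 (SE 0.22, limma adjusted p = 0.321). NDUFA4 had the lowest difference of the 57 genes, -0.25 (SE 0.30), with 12.50, 12.52, 11.60 and 12.97 against 12.72, 12.37, 12.86 and 12.64. Its control arrays were tightly placed and did not include a low array 89.

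The forms of subunit 7A stood on either side of 0. COX7A1 had 9.53, 9.55, 8.77 and 8.17 with antibiotics and 8.94, 9.29, 7.88 and 8.09 in controls, a difference of 0.45 (SE 0.46). COX7A2, the form found in most tissues, had 13.69, 13.92, 12.98 and 13.90 against 14.14, 13.88, 13.33 and 13.85, a difference of -0.18 (SE 0.26). Both pairs of groups overlapped widely. COX6A1, the non-muscle form of subunit 6A, had a difference of -0.03 (SE 0.24), and COX6C and COX7C, small membrane subunits, of 0.09 (SE 0.21) and 0.22 (SE 0.27).

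In complex V 10 of 13 genes had a higher distal mean with antibiotics, with a median of 0.20. The largest difference was that of ATP5I, the gene of subunit e, which helps pair the enzyme in the membrane. It had 10.39, 10.57, 9.99 and 10.28 with antibiotics and 10.40, 10.40, 8.93 and 9.62 in controls, a difference of 0.47 (SE 0.31, limma adjusted p = 0.511). Control arrays 83 and 88 lay within the treated range, and without arrays 89 and 92 the difference was -0.09. The catalytic subunit genes had differences near 0, -0.06 (SE 0.22) for ATP5A1 and -0.02 (SE 0.25) for ATP5B. ATP5A1 had 13.74, 13.83, 13.85 and 14.08 with antibiotics and 13.83, 13.84, 14.24 and 13.81 in controls, where array 89 was the high one. The 3 genes that encode the same mature ring subunit c, ATP5G1, ATP5G2 and ATP5G3, had differences of 0.17 (SE 0.21), 0.21 (SE 0.31) and -0.02 (SE 0.17). Of the central stalk genes ATP5D had 0.33 and ATP5E 0.41, and the stator and membrane subunit genes ATP5F1, ATP5H, ATP5J, ATP5L and ATP5O ran from 0.14 for ATP5O to 0.36 for ATP5H.

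**Figure D3:**
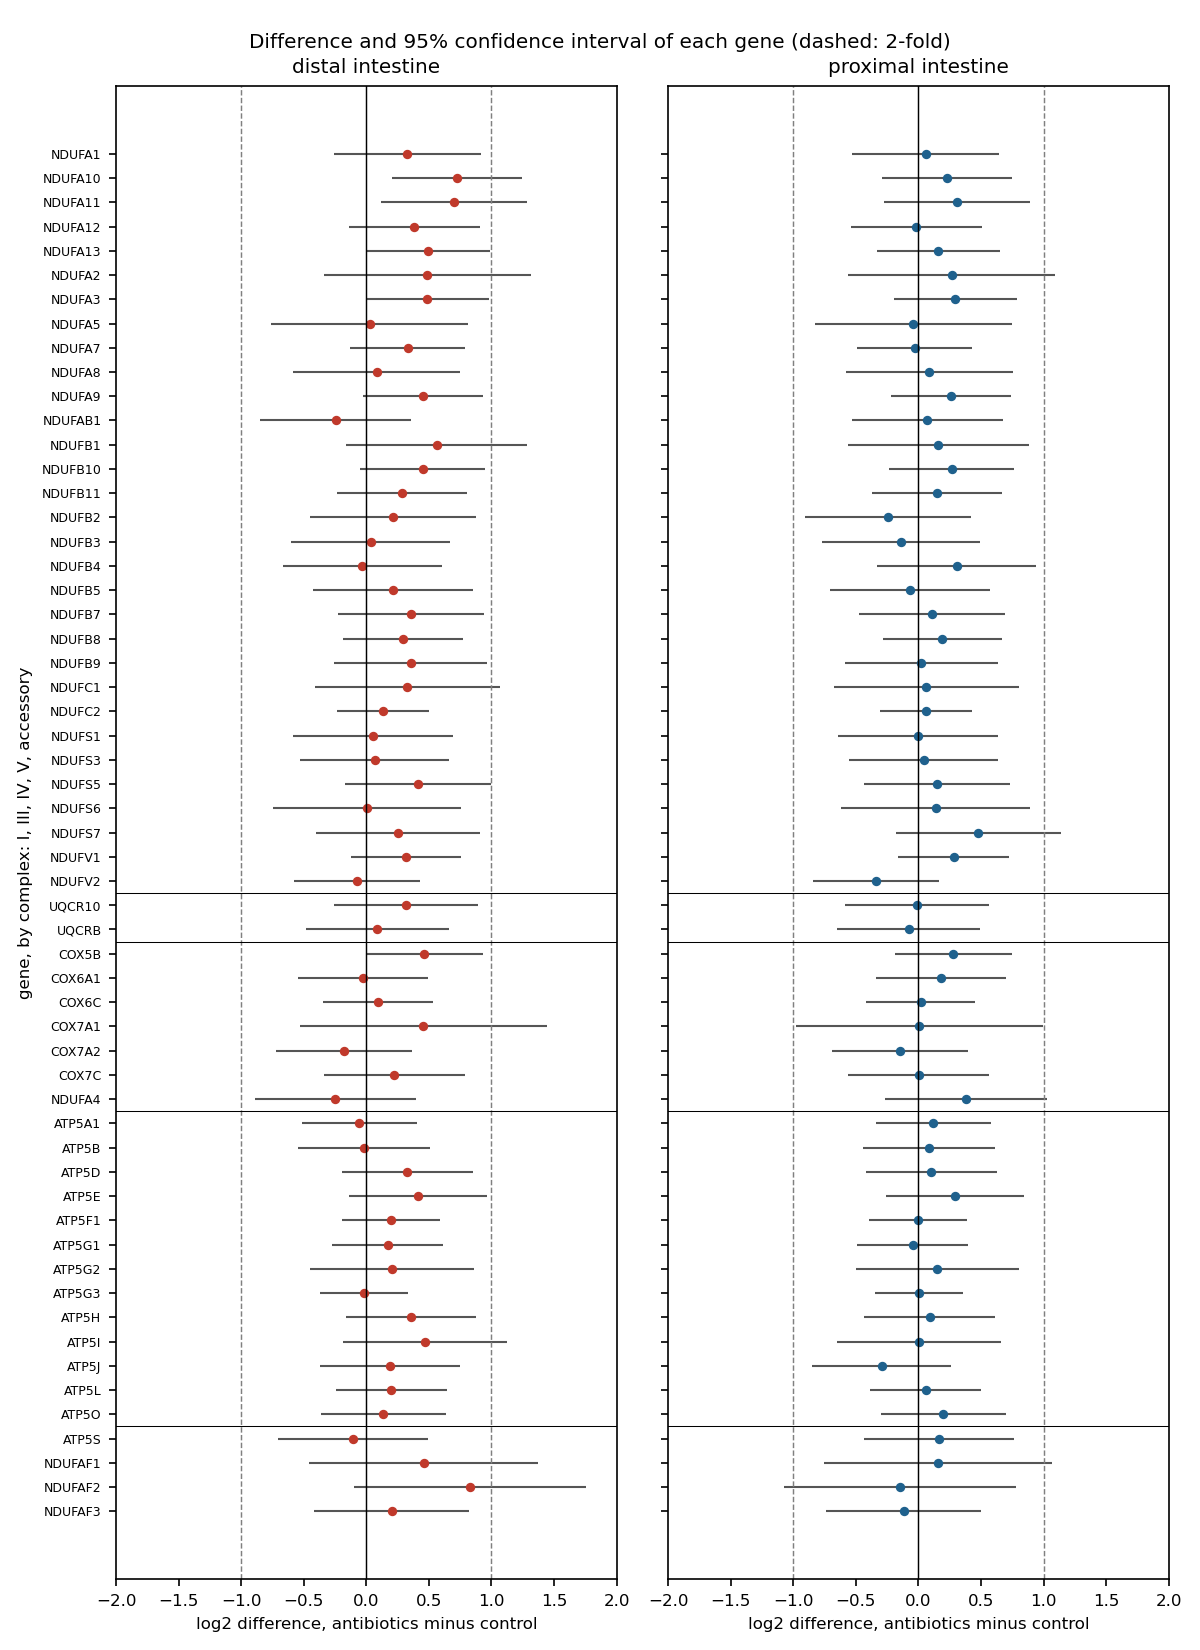
Log2 difference between antibiotics and control for each tested gene (points, by complex) in distal and proximal tissue, with 95% confidence intervals as lines and a 2-fold change dashed. Complex I points lie mostly above 0 in distal tissue, 28 of 31, and none of the 57 genes was called in either segment.

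The size and direction of the distal median depended on which control arrays were included. Leaving out 1 array at a time gave a median difference over the 57 genes between 0.12, without control distal 89, and 0.38, without antibiotics distal 87. Control distal 89 and 92 were chosen after their values were seen, as the controls lowest for these genes, so leaving them out had to lower the difference. Without both the median was -0.04 and 24 of 57 genes had a higher mean. Without the other pair of control arrays, 83 and 88, it was 0.55. With the 5′ minus 3′ measure of each array as a covariate it was 0.31.

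**Figure D4:**
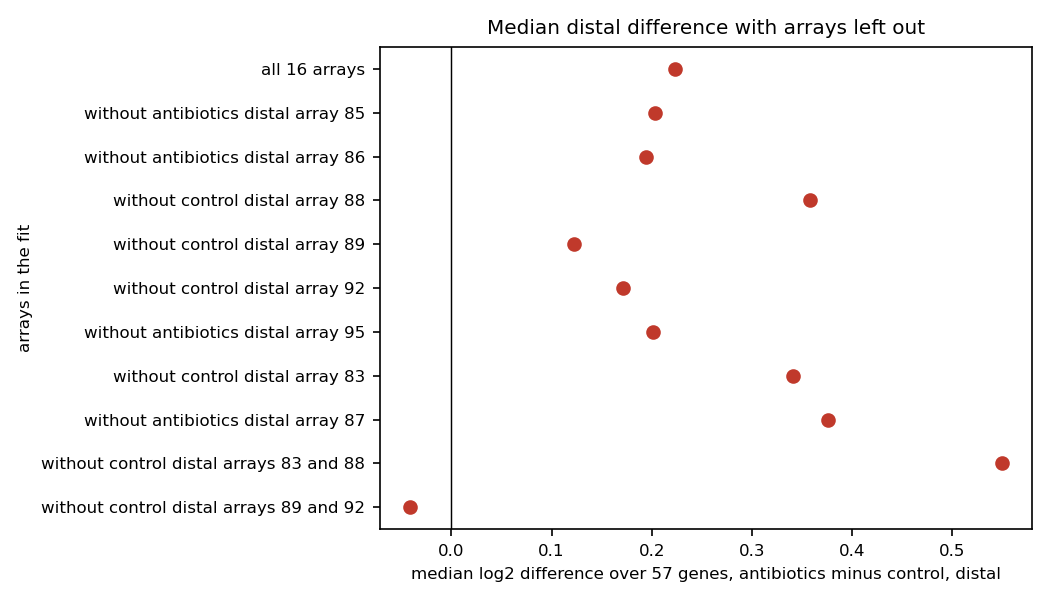
Median log2 difference between antibiotics and control in distal tissue over the 57 genes, for all 16 arrays and with the named arrays left out. It moves from 0.22 to -0.04 without control distal arrays 89 and 92, the low controls chosen after their values were seen, and to 0.55 without 83 and 88.

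Some cell type markers differed between the distal groups. Of 12 measured enterocyte markers 9 had a lower and 3 a higher distal mean with antibiotics, with a median difference of -0.36. With limma 0 of the 12 were called at an adjusted p of 0.05 in distal tissue. Their summed log2 level was 155.9 to 160.0 in antibiotics distal and 160.7 to 167.4 in control distal tissue. It was 163.0 to 172.4 in antibiotics proximal and 154.7 to 167.2 in control proximal tissue. The lowest and highest single values of FABP2 and EPCAM were 14.99 and 16.47, and 13.28 and 15.08, so epithelium was present on every array. Of 4 tested macrophage markers CD163 and C1QC fell with antibiotics in distal tissue, and the summed level of the 5 measured was 23.7 to 28.6 against 35.4 to 36.7, with 27.8 to 34.9 in antibiotics proximal and 34.1 to 38.7 in control proximal tissue. CD14 was at or near the floor on every array, up to 2.34. All 5 tested markers of proliferating crypts had lower distal means with antibiotics, and OLFM4, a crypt stem cell gene, fell by 2.40 (limma adjusted p = 0.0444). Their summed level was 47.0 to 52.7 with antibiotics and 53.5 to 54.8 in controls in distal tissue, and 46.3 to 52.9 and 50.4 to 56.4 in proximal tissue. All 5 tested markers of distal small intestine had higher distal means with antibiotics, and NEU1, a lysosomal sialidase, rose by 2.31 (limma adjusted p = 0.0489). Their summed level was 55.8 to 59.5 with antibiotics and 49.4 to 55.2 in controls in distal tissue, and 38.9 to 46.2 and 32.9 to 46.5 in proximal tissue. Both tested neutrophil markers, S100A9 and NCF1, fell as well in distal tissue (limma adjusted p = 0.00161 and 0.0330). Whether these cells or markers had a part in the values of the respiratory chain genes was not tested. In whole tissue, fewer cells of a type and less RNA per cell cannot be told apart.

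In proximal tissue the differences between antibiotics and saline were smaller still. Of 57 genes 41 had a higher and 16 a lower mean, with a median of 0.08, against a median of -0.07 and 43.2% higher over all tested probe sets. Without antibiotics proximal 98 the median was 0.0068, with 30 of 57 genes higher. With limma 0 of 57 genes were called, where 0.147% of all probe sets were called, and 0 of 57 had an unadjusted p under 0.05, against 12.9% of all. The 95% interval lay within a 2-fold change for 52 of 57 genes, and 0 of 57 had groups that did not overlap, where 1.31% of all probe sets did so with a higher and 1.74% with a lower mean. The median difference was 0.11 in complex I, -0.04 in complex III, 0.02 in complex IV and 0.08 in complex V.

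The largest proximal difference was that of NDUFS7. Its values were 10.80, 10.51, 11.02 and 10.63 on antibiotics proximal arrays 86, 87, 95 and 98, and 10.34, 10.96, 9.40 and 10.34 on control proximal arrays 83, 88, 89 and 92. Control array 88 lay among the treated arrays and array 89 far below all others, and the difference was 0.48 (SE 0.31, limma adjusted p = 0.561). The lowest was that of NDUFV2, with 11.77, 11.21, 11.80 and 12.34 against 12.05, 11.92, 12.43 and 12.07, a difference of -0.34 (SE 0.24). In the other complexes the extremes were NDUFA4 at 0.38 (SE 0.30) and COX7A2 at -0.15 (SE 0.26) in complex IV. In complex V they were ATP5E, the epsilon subunit gene of the central stalk, at 0.29 (SE 0.26) and ATP5J, the coupling factor 6 gene of the peripheral stalk, at -0.29 (SE 0.26). In complex III UQCR10 differed by -0.01 (SE 0.27) and UQCRB by -0.08 (SE 0.27). NDUFA10, the gene with the smallest distal p, had 9.99, 9.84, 9.98 and 9.67 with antibiotics and 9.98, 9.86, 8.88 and 9.83 in controls. Here 3 of 4 control arrays lay at the treated level, and the difference was 0.23 (SE 0.24).

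The difference between the distal and the proximal effect was tested as an interaction term. With limma 0 of 57 genes were called, where 0.191% of all probe sets were called, and 0 of 57 had an unadjusted p under 0.05, against 6.62% of all. The median was 0.19, against 0.08 over all tested probe sets, and 44 of 57 genes were above 0 and 13 below, against 56.6% and 43.4% of all. The median was 0.039 without control distal 89, and without control distal 89 and 92 it was -0.096 with 15 of 57 genes above 0. The largest term was 0.97 (SE 0.62) for NDUFAF2 and the lowest -0.63 (SE 0.43) for NDUFA4. The 95% interval of this term lay within a 2-fold change for 26 of 57 genes only. At the median SE of 0.38 a gene needed a term of 1.99 to be called, so a 2-fold difference between the segments was below that.

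**Figure D5:**
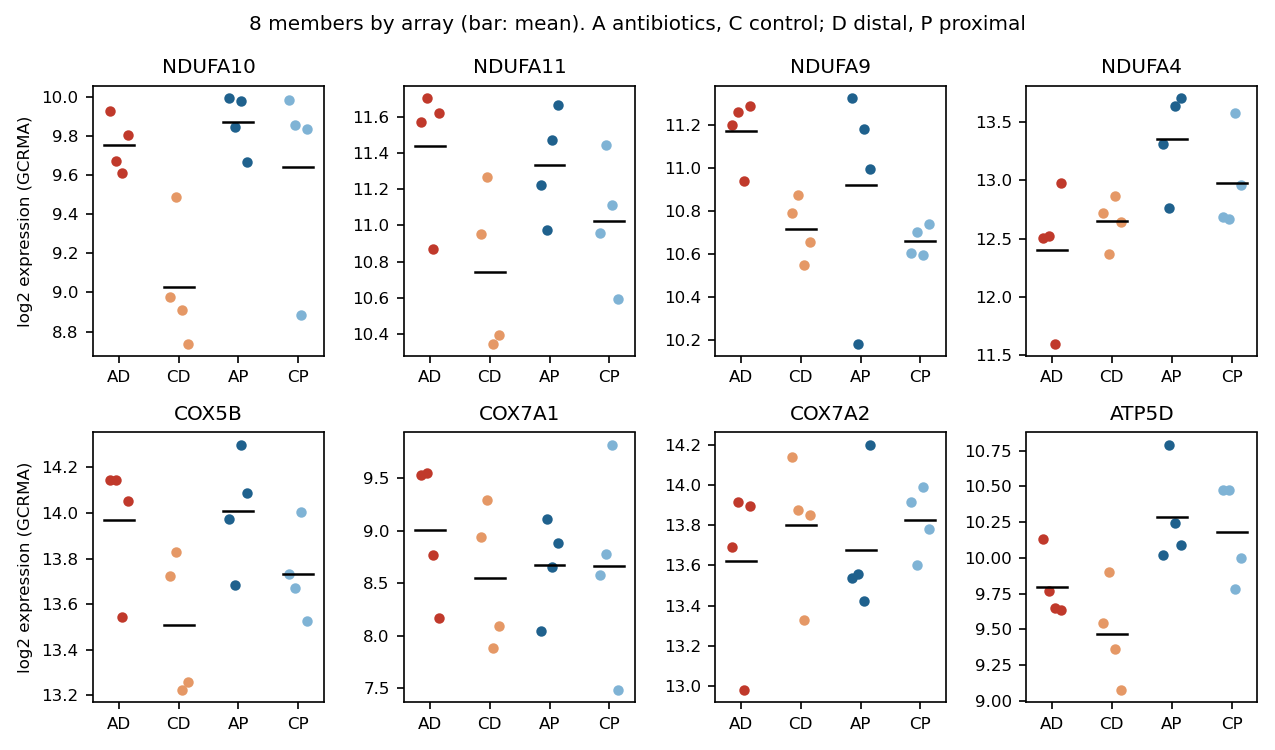
Log2 expression of 8 genes on each array (points) with the mean of each group (bar); AD and CD are antibiotics and control distal, AP and CP antibiotics and control proximal. NDUFA10 and NDUFA9 do not overlap between AD and CD, and NDUFA4 is lower in AD, mean 12.40, than in AP, mean 13.35, with 1 AP array at 12.76 inside the AD range.

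Between the segments respiratory chain transcripts had lower means in distal tissue. In control piglets 49 of 57 genes had a lower distal mean, against 51.0% of all tested probe sets, with a median log2 difference of -0.22 against -0.01 over all. The medians were -0.25 in complex I, -0.20 in complex III, -0.24 in complex IV and -0.24 in complex V, and all 7 tested complex IV genes were lower. With limma 0 of 57 genes were called, where 0.364% of all probe sets were called. At an unadjusted p under 0.05 there were 6, all lower in distal tissue, 10.5% of the set against 7.99% of all probe sets. This comparison uses the same control distal arrays as the distal antibiotic comparison. Without array 89 the median was -0.064, without arrays 89 and 92 it was 0.05 and 38 of 57 genes had a higher distal mean, and without 83 and 88 it was -0.52.

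The smallest p among them was that of ATP5D, the delta subunit gene of the central stalk of ATP synthase. It had 9.54, 9.90, 9.36 and 9.07 in control distal and 10.47, 10.48, 9.78 and 10.00 in control proximal tissue. The groups overlapped by 1 array on each side, and the difference was -0.71 (SE 0.25, limma adjusted p = 0.350). NDUFV1 had 8.35, 8.64, 8.18 and 7.97 in distal and 9.14, 8.70, 8.68 and 8.88 in proximal tissue, a difference of -0.57 (SE 0.21, limma adjusted p = 0.399). NDUFV1 and ATP5G1 were the 2 genes whose control groups did not overlap, both lower, where 1.98% of all probe sets did so; 0 of 57 did so with a higher mean, against 1.94% of all. The others with a p under 0.05 were NDUFA10 at -0.61, NDUFA7, an accessory subunit of the matrix arm, at -0.60, ATP5I at -0.67 and ATP5G1 at -0.49.

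In piglets on antibiotics the median difference between the segments was -0.06, against 0.05 over all tested probe sets. A lower distal mean was found for 42 of 57 genes and a higher one for 15, against 44.7% and 55.3% of all. This direction did not hold under 4 alternatives. The median was 0.027 with array quality weights. It was 0.025 with 33 of 57 genes higher with the 5′ minus 3′ measure as a covariate, 0.018 with 31 higher without antibiotics distal 87, and 0.0025 with 29 higher without antibiotics proximal 98. The 5′ minus 3′ measure itself was -4.22 ± 0.54 in antibiotics distal and -3.52 ± 0.37 in antibiotics proximal tissue (SD, n = 4 each). With limma 0 of 57 genes were called, where 5.25% of all probe sets were called, and 2 genes had an unadjusted p under 0.05, against 17.0% of all. The gene nearest to the threshold was NDUFA4, with 12.50, 12.52, 11.60 and 12.97 on antibiotics distal and 13.31, 12.76, 13.64 and 13.70 on antibiotics proximal arrays. Distal array 95 and proximal array 87 overlapped, and the other arrays kept apart. The difference was -0.95 (SE 0.30, 95% interval -1.60 to -0.31, 0.52-fold; limma adjusted p = 0.0879). Over the alternatives the adjusted p ran from 0.00197 to 0.268. It was 0.0454 without antibiotics proximal 87, 0.248 without antibiotics distal 87 (difference -0.69), 0.242 without antibiotics proximal 95 and 0.268 with the 5′ minus 3′ covariate. In control tissue the same gene had 12.72, 12.37, 12.86 and 12.64 against 12.69, 12.67, 13.58 and 12.96, a difference of -0.33 (SE 0.30).

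NDUFV1 was also lower in distal tissue under antibiotics. Its distal values were 8.62, 8.60, 8.63 and 8.58 and its proximal values 9.50, 9.22, 9.09 and 8.72, a difference of -0.53 (SE 0.21, limma adjusted p = 0.190). The treated distal arrays lay very close together and below all proximal ones. COX6A1 was the other gene without overlap, with 13.83, 13.98, 13.18 and 13.89 in distal and 14.00, 14.28, 14.30 and 14.27 in proximal tissue. Of all probe sets 4.70% had such groups with a lower mean and 7.69% with a higher one, the latter against 0 of 57 genes. ATP5J went the other way, with a distal mean higher by 0.55 (SE 0.26, limma adjusted p = 0.299). As a check of the segment labels GATA4, a transcription factor of the proximal small intestine, fell from proximal to distal tissue by 3.09 in controls and by 3.06 under antibiotics (limma adjusted p = 0.00434 and 0.00137). All 5 tested distal markers had higher distal means in both. Of these 2 were called under antibiotics, FABP6 and NEU1, and 0 in controls. FABP6 was at 7.40 on control proximal 88, above control distal 89 at 7.32 and 92 at 6.64, so the control segments overlapped in this marker.

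The array carried 74 probe sets for the 59 genes, and 12 of these genes had more than 1. The values above are of each gene's probe set with the highest mean. For ATP5L, the gene of subunit g of ATP synthase, the probe set used gave a distal difference of 0.20, another 0.18 and the third 0.99 (limma adjusted p = 0.113). For NDUFS3 the one used and another both gave 0.07, and the third gave 0.91 (limma adjusted p = 0.430). The second probe sets of NDUFV2, NDUFB3 and ATP5S differed in sign in distal tissue, with 0.28 against -0.08, -0.16 against 0.03 and 0.09 against -0.11.

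The neighbouring parts of mitochondrial metabolism gave few calls. Of 5 tested genes of complex II, which feeds electrons from succinate, 0 were called with limma in any comparison; SDHC, a membrane anchor, differed by 0.44 (SE 0.22) in distal and by 0.59 (SE 0.22, unadjusted p = 0.0169) in proximal tissue. CYCS, which encodes cytochrome c, differed by -0.51 (SE 0.32) in distal tissue. ATPIF1, the inhibitor of ATP synthase, differed by 0.38 (SE 0.29) in distal tissue. Of 9 tested assembly factors of complexes III to V 1 was called: HIGD1A, which is induced by low oxygen and binds complex IV, fell by 1.68 in distal tissue with antibiotics (SE 0.37, limma adjusted p = 0.0270). The mitochondrially encoded subunits were looked up under 26 symbols, which include alternative names of the same gene. None had a probe set annotated here, so the mitochondrial DNA part of the chain was not analysed here.

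Around the chain, the list with the most uniform distal shift was that of the mitochondrial ribosome, which makes the mitochondrially encoded subunits. Of its 55 tested genes 0 were called with limma in distal tissue, 49 had a higher mean with antibiotics, and the median difference was 0.25, close to that of the respiratory chain. In proximal tissue 16 of the 55 had a higher mean, with a median of -0.09. The array medians of this list in distal tissue split as those of the respiratory chain did, with 0.12, 0.06, -0.40 and -0.29 on control arrays 83, 88, 89 and 92. The 20 tested genes of protein import into mitochondria had medians of 0.38 in distal and -0.13 in proximal tissue, with 0 called in either.

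Fuel pathways gave single calls. Of 17 tested genes of mitochondrial fatty acid oxidation 1 rose and 1 fell in distal tissue with antibiotics. ACADS, the short-chain acyl-CoA dehydrogenase, rose by 1.17 (SE 0.24, limma adjusted p = 0.0177), and CPT1A, which commits long-chain fatty acids to import, fell by 1.50 (SE 0.35, limma adjusted p = 0.0377). In proximal tissue 0 of the 17 were called, although all 17 had a higher mean, with a median of 0.58. Among 13 tested carriers and pores SLC25A1, the citrate carrier, rose by 1.77 in proximal tissue (SE 0.29, limma adjusted p = 0.0242). Between segments under antibiotics ACAA2, the thiolase of fatty acid oxidation, decreased by 3.08 from proximal to distal tissue (limma adjusted p = 0.000948), SLC25A1 decreased by 1.27 and CKMT1A, a mitochondrial creatine kinase, decreased by 1.28. For the 17 genes of the tricarboxylic acid cycle, 14 of glycolysis, 7 of the hypoxia response and 6 of mitochondrial biogenesis 0 were called with limma in the antibiotic comparisons of either segment, and the tricarboxylic acid cycle medians were 0.17 in distal and 0.23 in proximal tissue.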

How the data were processed

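The submitters' processing notes name GCOS 1.2, GCRMA and limma, without order or settings. Deposited by the authors were log2 GCRMA values, 1 per probe set and array, with a floor at 2.14, and 39.7% of them lay under 2.5. The number of arrays limits the precision. Per the labels' protocols, RNA was labelled with a 3′ IVT kit, so a probe set reads the 3′ end of a transcript.

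Of 24123 probe sets 124 controls were left out; of the rest 10069 had 1 gene in the platform annotation, 198 several and 13732 none. All 59 symbols matched a RefSeq gene entry. Probe sets above log2 5 on at least 4 of 16 arrays were tested, 11538 in all. Groups were taken from the labels. Group means of all 16 arrays were fitted with limma 3.58.1 (lmFit, eBayes) in R 4.3.3, with Benjamini-Hochberg adjustment over all tested probe sets. A scripted check on simulated data was made of the fit. Array deviations are from the gene's mean over 16 arrays, and within-group SD is pooled over the 4 groups.

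The members and lists were chosen with earlier results of these data known. Named are members past the threshold (there were 0), those with the highest and lowest antibiotic difference of each complex in each segment, those with tissue isoforms or gene copies (COX6A1, COX7A1, COX7A2, NDUFA4, ATP5G1 to ATP5G3), ATPIF1, and up to 2 called genes per comparison list; NDUFA11, NDUFA9, NDUFAF2, NDUFB1, NDUFV1, NDUFA10 in other comparisons, ATP5D, NDUFA7, ATP5B, ATP5J between segments, genes named for a role beside these, SDHC and the markers were added after their values were seen. Alternatives were other filters, normalizations, eBayes settings, array weights, probe set averaging, fewer arrays, a replicate block and an RNA integrity covariate. Plots used matplotlib 3.10.9 (Python 3.11.15).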

Additional observations from a re-analysis of the deposited data

Results flagged for a closer look

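In 116 sets of 4 values, 1 value stood apart from the other 3 in 11, where chance gives about 1 in 20 for independent sets. These sets were not independent, as the genes varied together and some were named for their values. The 11 therefore cannot show an excess over chance. On antibiotics distal array 87 the median deviation of complex I was -0.31 (others 0.22 to 0.23) and that of complex III -0.49 (others 0.22 to 0.29), COX5B was at 13.54 (others 14.05 to 14.14) and NDUFA11 at 10.87 (others 11.57 to 11.70). Other low values were the complex V median on antibiotics proximal 87, -0.044 (others 0.16 to 0.20), COX6A1 on antibiotics proximal 86, 14.00 (others 14.27 to 14.30), and NDUFA10 on control proximal 89, 8.88 (others 9.83 to 9.98). High values were ATP5A1 on control distal 89, 14.24 (others 13.81 to 13.84), ATP5G2 on control proximal 88, 12.41 (others 11.43 to 11.60), COX7A2 on antibiotics proximal 98, 14.20 (others 13.43 to 13.56), and NDUFAF2 on antibiotics distal 86, 10.07 (others 9.39 to 9.48).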

How the results depend on the processing

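With 4 arrays a group a log2 difference near 1 or more was needed for a call, and the distal values depend on control distal arrays 89 and 92. Without both, chosen after seeing the data as the lowest controls, the median difference over the 57 genes was -0.042 in distal tissue, -0.096 for the segment difference and 0.054 for distal against proximal in controls, and UQCRB (-0.15), ATP5I (-0.092), ATP5A1 (0.041), COX7A1 (-0.11) and ATP5G1 (-0.042) changed sign in distal tissue. Without control distal arrays 83 and 88, these medians were 0.55, 0.45 and -0.52, and COX6A1 (0.36), COX7A2 (0.030) and ATP5G3 (0.12) changed sign. The cause was not tested.

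Leaving out 1 array gave medians of 0.12 to 0.38 in distal and 0.0068 to 0.13 in proximal tissue, 0.039 to 0.32 for the segment difference, -0.34 to -0.064 for the segments in controls and -0.12 to 0.018 under antibiotics. Distal differences that changed sign ranged from -0.069 to 0.22 for UQCRB, -0.44 to 0.018 for NDUFA4, -0.13 to 0.048 for ATP5A1, -0.21 to 0.15 for COX6A1, -0.34 to 0.034 for COX7A2 and -0.085 to 0.030 for ATP5G3. Proximal ones ranged from -0.14 to 0.091 for UQCR10, -0.29 to 0.081 for UQCRB, -0.39 to 0.39 for COX7A1, -0.12 to 0.027 for ATP5G1 and -0.040 to 0.068 for ATP5G3.

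Array quality weights called 7 genes in distal tissue (COX5B, NDUFA10, NDUFA11, NDUFA13, NDUFA3, NDUFA9, NDUFB10), with 14.4% of all probe sets called, and 5 between segments under antibiotics (NDUFA4, NDUFAF1, NDUFB2, NDUFS7, NDUFV1), with 26.1% called. Between segments under antibiotics the count was 1 (NDUFA4) at an adjusted p of 0.10, with 7.72% of all probe sets called, and 0 to 1 with 1 array left out: NDUFAF1 without antibiotics proximal 98 (5.53% of all) and NDUFA4 without antibiotics proximal 87 (4.75% of all). The cause was not tested.

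With the animal number as a random replicate block (correlation 0.172) NDUFA4 was called between segments under antibiotics (1 gene, -0.94, limma adjusted p = 0.0473), with 6.86% of all probe sets called, and with the number as a fixed block its adjusted p was 0.0829. The main test did not treat the numbers as pairs. Residuals of the 2 segments correlated above 0.1 for 5 of 7 numbers, and 4 of 7 correlated best with their own number. These correlations are no ground for leaving out the pairing, and the main p values between segments ignore it.

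Other small values changed sign. In distal tissue these were COX6A1 with quantile normalization (0.012), array weights (0.046) and the RNA integrity covariate (0.0068), ATP5G3 with array weights (0.013), the covariate (0.018) and only numbers with both segments (0.018), and ATP5A1 with the covariate (0.014). In proximal tissue they were UQCR10 (0.040) and ATP5G1 (0.0043) with equal array medians, UQCR10 with the random block (0.0056), COX7A1 with only numbers with both segments (-0.062), and ATP5G2 (-0.044) and ATP5G3 (-0.032) with the covariate. Of 1270 values of single genes under alternatives 1213 kept their direction and side of the threshold, 48 changed sign and 9 passed the threshold.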
